A study of Mus musculus with 4 samples.

Results

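Myc and Mycn encode basic helix-loop-helix transcription factors that pair with Max at E-box sequences and drive growth and proliferation. Their messages and proteins are short-lived, and the proteins carry a conserved phosphodegron: Gsk-3 phosphorylates a threonine in it after a neighbouring serine has been primed, and the ubiquitin ligase subunit Fbxw7 then marks the protein for destruction. In mouse embryonic stem cells Myc is known as a target of LIF and STAT3 signalling, and the paralogues cover for each other's loss. N6-methyladenosine (m6A) is a mark on mRNA that bears on its decay and translation, and in human cells the coding region of MYC mRNA is known to be bound by IGF2BP proteins, which read the mark.

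The members were all regions of the deposited table whose gene symbol was Myc or Mycn. There were 9, of 6697 distinct regions: 4 of Myc and 5 of Mycn, so that these genes were 2 of 3882 listed. The study captured m6A-bearing mRNA from mouse embryonic stem cells lacking both Gsk-3 kinases (Gsk-3 double knockout, DKO) and from wild-type (WT) cells, both labelled with the strain E14K. All cells were feeder-free and had been withdrawn from leukaemia inhibitory factor (LIF), the cytokine that maintains self-renewal, before RNA was taken. The labels give 4 groups of 1 library: m6A of DKO cells, m6A of WT cells, and an input of each, and do not say how many clones or cultures stand behind a library.

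The table gave 1 count per region for each genotype, headed by genotype and not by library type. The counts were taken as those of the m6A libraries, whose titles name the assay, and a count corrected for input cannot be told apart from one that was not. There were 0 input columns. Counts over all listed regions summed to 27072 in DKO and 573971 in WT cells, which describes the list and not sequencing depth. In 0 regions was the DKO count at or above the WT count, so the list held a single direction, and a lower DKO count is in itself no finding for any member. A median-ratio factor would add 3.77 to every log2 value. That would put 3 of the 9 members, and the medians of 3 of the 6 gene lists below, above 0. It does not centre the list, whose median log2 was -4.93 over all regions, so 0 is not its middle. With no input and 1 library per group, less methylation, less of the mRNA, fewer expressing cells and less RNA per cell cannot be told apart. Gsk3a was not listed, and Gsk3b only through a region upstream of the gene (3 reads in DKO and 78 in WT cells), which checks nothing about the deletion. Of the stem cell genes Pou5f1, Nanog and Sox2, picked with earlier results known, Pou5f1 alone was listed, with 6 reads in DKO and 55 in WT cells.

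Every Myc and Mycn region lay inside its gene as RefSeq places it in GRCm38, 4 of 4 for Myc and 5 of 5 for Mycn, and 0 other RefSeq genes overlapped either span. The table listed 0 of the 9 regions under a second gene. The Myc gene (identifier 17869) runs from 61985341 to 61990361 on chromosome 15, and its regions covered 1421 bases or 28.3% of it. The Mycn gene (identifier 18109) runs from 12936093 to 12941836 on chromosome 12, and its regions covered 1078 bases or 18.8%. Fold differences below are WT counts over DKO counts after the constant built into the authors' ratio, with exact 95% intervals that cover counting error only. For regions with 0 DKO reads a bound is given instead, computed as if that library had 3 reads.

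Myc had at most 6 reads in a region in the DKO library, and in both libraries most of its reads lay in a long coding region. The 5'UTR region of Myc (61985450 to 61985719), centred 243 bases after the transcription start, had 0 reads in DKO and 58 in WT cells (95% interval 44.0 to 75.0). At the floor of 3 reads it is at least 15.9-fold lower in DKO cells, and the exact 95% interval, which is more cautious, starts at 12.6-fold. The first coding region (61987587 to 61988234) was the longest, at 648 bases, with 6 reads in DKO (2.20 to 13.1) and 233 in WT cells (204 to 265). It was 32.0-fold lower in DKO cells, with an interval of 14.5 to 88.2. It held 60.0% of the DKO reads and 61.5% of the WT reads listed for Myc.

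Toward the 3' end of Myc, a second coding region (61989378 to 61989611) had 3 reads in DKO (0.619 to 8.77) and 50 in WT cells (37.1 to 65.9). This is the smallest fold of the Myc regions, 13.7 (4.44 to 68.9). The last region (61989778 to 61990046), annotated to coding exon and 3'UTR together, had 1 read in DKO (0.0253 to 5.57) and 38 in WT cells (26.9 to 52.2). Its fold of 31.3 had an interval of 5.30 to 1270, as 1 read fixes a ratio poorly. In the genome, 166 bases separated these last regions, against 1867 and 1143 bases in the gaps before them. Per 100 bases, the WT count was 21.5 in the 5'UTR, 36.0 and 21.4 in the coding regions and 14.1 at the 3' end, and the DKO count was at most 1.28.

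Mycn had more reads than Myc in both libraries, with the highest count in a region that spans the end of its 5'UTR and the start of its coding sequence (12940103 to 12940444). There DKO cells had 33 reads (22.7 to 46.3) and WT cells 506 (463 to 552), 12.6-fold lower in DKO cells (8.89 to 18.6). By WT count this region ranked 113 of the 6697, and 98.3% of all regions had a lower WT count. It held 71.7% of the DKO reads listed for Mycn and 54.1% of the WT reads.

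Upstream of it, the region annotated to 5'UTR and intron (12941498 to 12941692), centred 241 bases after the transcription start, had 0 reads in DKO and 91 in WT cells (73.3 to 112). At the floor it is at least 25.0-fold lower in DKO cells, and the exact interval starts at 19.9-fold. Myc and Mycn thus each had a region at nearly the same distance from the start, and the DKO count was 0 in both. Among regions of like WT count, 0 DKO reads were found in 43.3% for Myc and 32.3% for Mycn. Downstream, the coding region (12939751 to 12939935) had 3 reads in DKO (0.619 to 8.77) and 169 in WT cells (144 to 196), 46.5-fold lower in DKO cells (15.6 to 228). That is the largest fold among the members with DKO reads.

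A neighbouring Mycn region of coding exon and intron (12939563 to 12939729), only 21 bases further on, had 2 reads in DKO (0.242 to 7.22) and 64 in WT cells (49.3 to 81.7). The difference was 26.4-fold (7.01 to 223). The 3'UTR region (12936757 to 12936945) stood 2617 bases beyond, with 8 reads in DKO (3.45 to 15.8) and 106 in WT cells (86.8 to 128), 10.9-fold lower in DKO cells (5.35 to 26.0). Counts per 100 bases were highest in the region across the start of the coding sequence (9.65 in DKO and 148 in WT cells) and next highest in DKO cells in the 3'UTR (4.23, against 56.1 in WT cells). Regions that include UTR sequence held 41 of the 46 DKO reads of Mycn (89.1%) and 703 of its 936 WT reads (75.1%). Most of these lay in the region across the start of the coding sequence, which counts under either label. Regions that overlap coding sequence held 38 of the 46 DKO reads and 739 of the 936 WT reads.

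**Figure D1:**
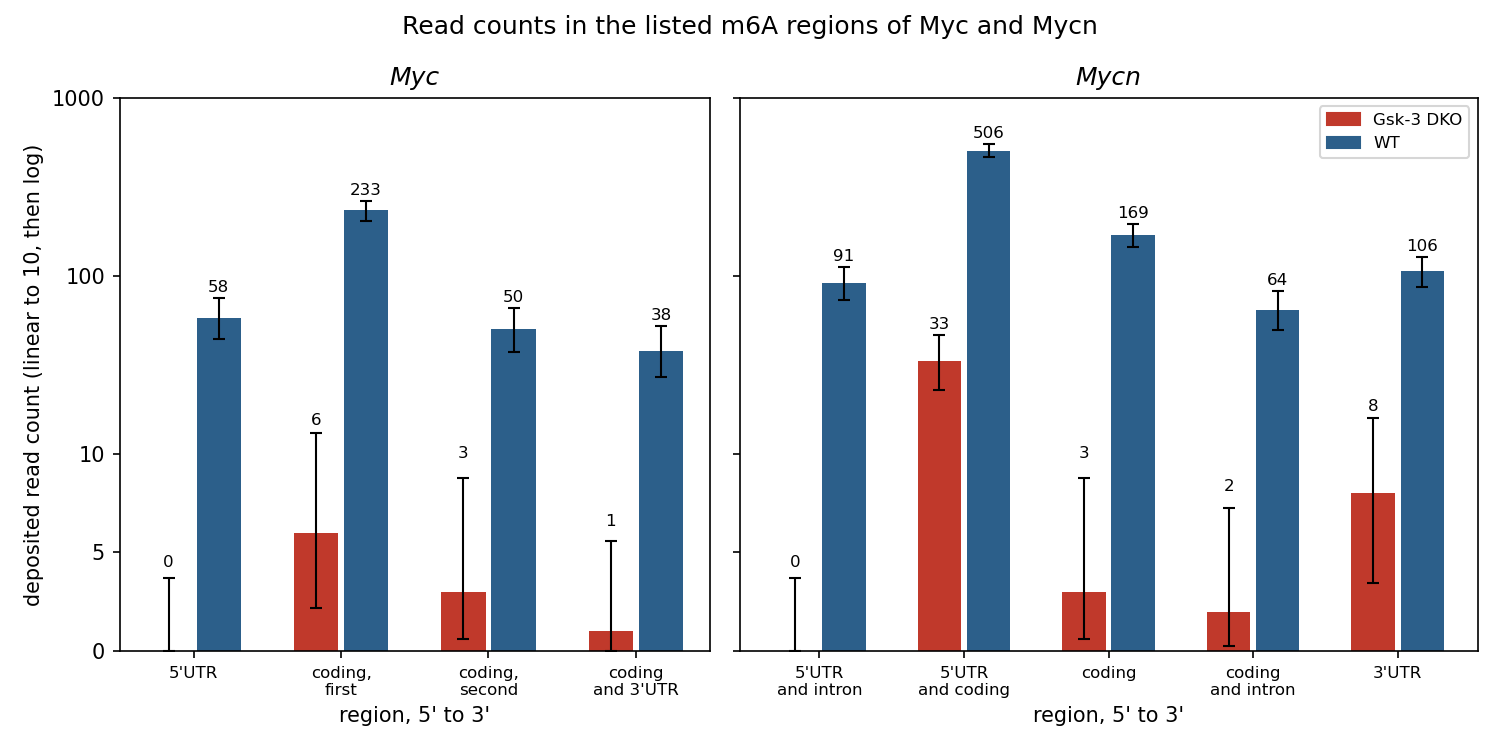
Read counts as deposited in the 4 Myc and 5 Mycn regions, ordered from 5' to 3', for Gsk-3 DKO (red) and WT (blue), with exact Poisson 95% intervals as error bars; the axis is linear to 10 and logarithmic above. WT counts run from 38 to 506 and DKO counts from 0 to 33, and only the Mycn region across the start of the coding sequence exceeds 8 reads in DKO cells.

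Regions of a gene come from the same transcripts and are not replicates, so they were set against each other as ratios of ratios, with intervals for counting error. The 6 pairs of Myc regions gave 0 intervals that excluded 1. Of the 10 pairs of Mycn regions, 3 intervals excluded 1 when taken singly. The DKO to WT ratio of the region across the coding start was 3.67 times that of the coding region (1.13 to 18.9). The region at 5'UTR and intron had at most 0.674 times the ratio of the region across the coding start, and at most 0.707 times that of the 3'UTR region. With intervals widened to cover all 16 pairs together, 0 excluded 1, and the first of these ran from 0.740 to 52.9. At this depth the folds therefore could not be separated along either message once all pairs were counted.

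**Figure D2:**
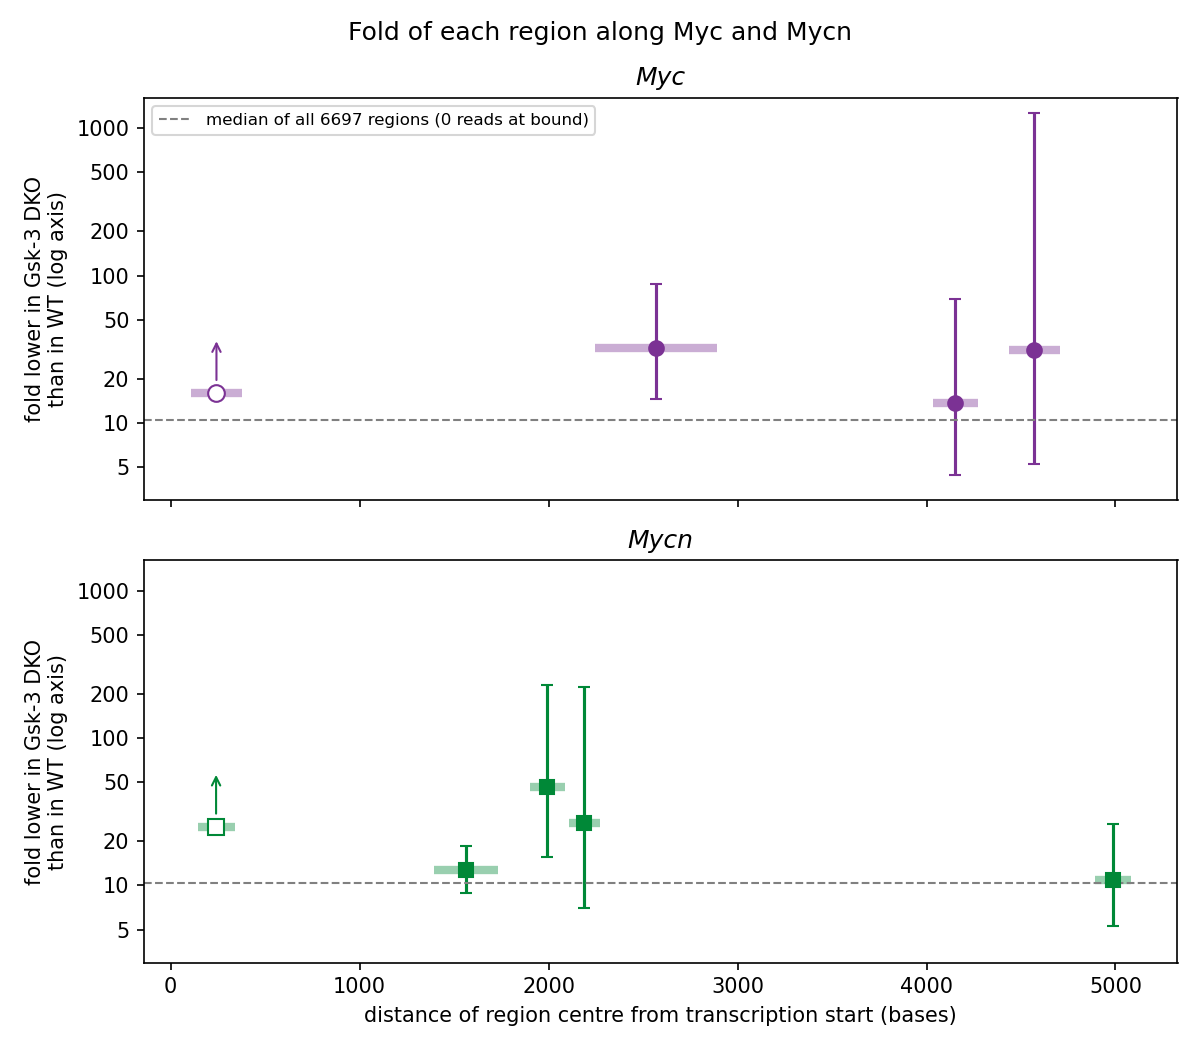
Fold lower in Gsk-3 DKO than in WT for each region (log axis) against the distance of its centre from the transcription start in bases, for Myc (top) and Mycn (bottom). Thick horizontal bars show region length and vertical bars exact 95% counting intervals, open symbols with arrows are lower bounds for regions with 0 DKO reads, and the dashed line is the median over all 6697 regions, 10.4-fold, in which the 50.5% with 0 DKO reads enter at bounds set by their WT count. All 9 symbols lie above that line, which understates the folds of regions with 0 DKO reads, and 5 of the 7 intervals drawn reach below it; ranked by log2 with a pseudocount of 0.5 instead, most regions had a larger fold than 6 of the 9 members.

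Summed over its regions, Mycn had 46 reads in DKO (33.7 to 61.4) and 936 in WT cells (877 to 998). Myc had 10 in DKO (4.80 to 18.4) and 379 in WT cells (342 to 419). Mycn was 16.8-fold lower in DKO cells (12.5 to 23.1) and Myc 31.3-fold lower (16.8 to 65.7). The counts of all regions together gave 17.5-fold, a value that regions of high count dominate. Gene by gene, the summed log2 of DKO over WT was -4.05 for Mycn and -4.90 for Myc, against a median of -4.77 over all genes. A larger fold was found for 63.7% of genes than for Mycn and for 47.5% than for Myc. Per 100 listed bases, Mycn had 4.27 reads in DKO and 86.8 in WT cells, and Myc 0.704 in DKO and 26.7 in WT cells, so Mycn was the denser gene in both libraries.

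The DKO to WT ratio of Mycn was 1.86 times that of Myc, but the interval of 0.915 to 4.18 includes 1. Scaling between libraries cancels in this comparison, since both genes were read in the same libraries. With only the region of highest mean count of each gene, the value was 2.53 (1.03 to 7.49), but an interval widened as for the 16 pairs above, 0.715 to 13.9, includes 1. Without those regions it was 1.10 (0.334 to 4.72), and over regions that overlap coding sequence 1.65 (0.794 to 3.76). These subsets were chosen after seeing the data. The interval of the sums allows a ratio for Mycn that is slightly below or several times that of Myc.

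Within the whole table, Myc and Mycn stood high by reads and number of regions. Mycn ranked 53 and Myc 239 of 3882 genes by summed WT count. At least as many regions as Mycn were listed for 142 genes (3.66%), and at least as many as Myc for 264 (6.80%). Regions over 5'UTR, coding sequence and 3'UTR were all listed for 67 genes (1.73%), and Myc and Mycn were both among them. These facts describe the list, whose rule of entry is not given in the sources used here.

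All 9 members were at least 10-fold lower in DKO cells, against a background of 52.5% of all regions. A region with 0 DKO reads reaches 10-fold only from 37 WT reads up, and the members had at least 38. Among the 3825 regions with at least 38 WT reads the background was 77.5%, so most regions of such depth did the same; among regions over an exon or UTR, as all members are, it was 56.6%. A DKO count of 0 was found in 2 of the 9 members, against 50.5% of all regions 34.5% of those with at least 38 WT reads and 36.1% of those over an exon or UTR. By log2 of DKO over WT with a pseudocount of 0.5, 51.1% of all regions had a larger fold than the deepest Myc region and 73.2% a larger fold than the deepest Mycn region.

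Set beside regions of like WT count (within a factor of 1.25), the members lay on either side of the middle. For the first coding region of Myc, the 262 such regions had a median DKO count of 10, and 35.1% of them had fewer than its 6 reads. The 84 regions like the deepest Mycn region had a median of 28, and 61.9% had fewer than its 33. The Mycn coding region with 3 reads stood lower, with 28.7% of 421 like regions below it and a median of 7. The Mycn 3'UTR region stood higher, with 71.0% of 707 like regions below its 8 reads and a median of 3, and so did the second coding region of Myc, with 70.0% of 1373 below its 3 reads and a median of 1. Zero reads, as in the regions nearest the transcription start, were found in 43.3% of 1211 regions like that of Myc and 32.3% of 836 like that of Mycn.

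**Figure D3:**
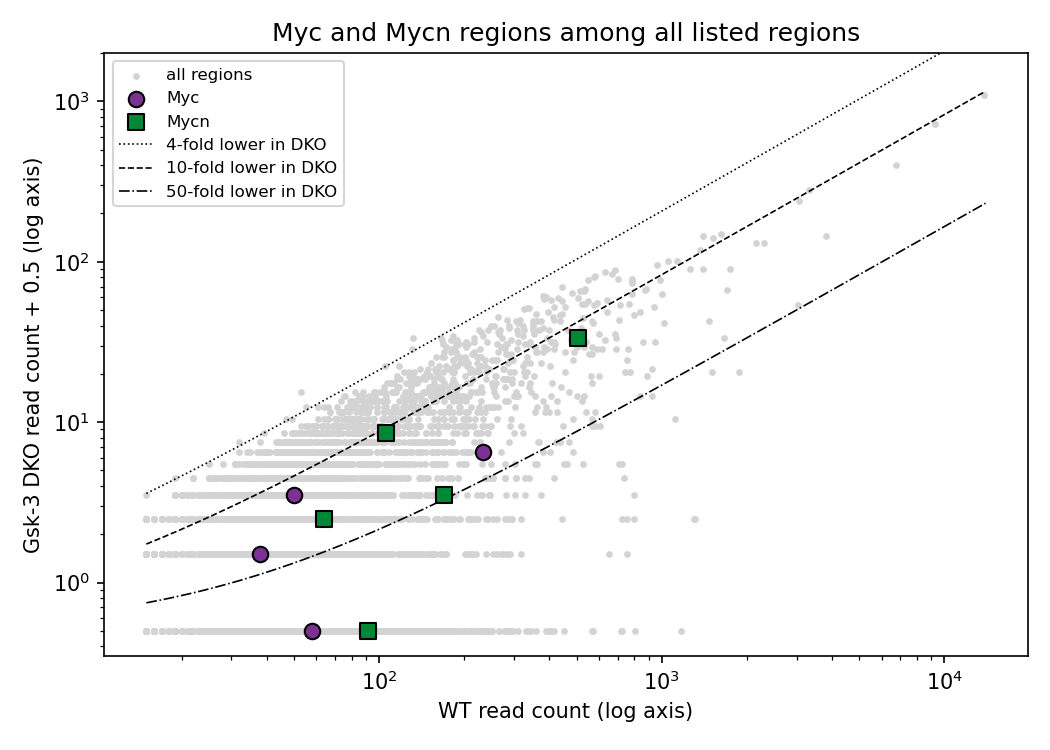
WT read count against Gsk-3 DKO read count plus 0.5 (both log axes) for all 6697 regions (grey), Myc (purple circles) and Mycn (green squares); lines mark 4-, 10- and 50-fold lower counts in DKO cells after the authors' constant. The members with DKO reads lie between the 10-fold and 50-fold lines, inside the cloud of other regions, and those with 0 DKO reads lie in its bottom row.

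The genes whose deepest region was most like that of Myc in both libraries, by distance on log2(count + 0.5), were Man2a1, Serping1 and Baz2a, each with 6 reads in DKO and with 233, 211 and 208 in WT cells. Their distances were 0, 0.14 and 0.16. For Mycn they were Bcar1, Dnahc7c and Nfe2l1, each with 29 reads in DKO and with 501, 532 and 565 in WT cells, at distances of 0.18, 0.20 and 0.24. The likeness is over 2 libraries only and describes counts. The Man2a1 region lay upstream of its gene and that of Serping1 in an intron, while those of Baz2a, Bcar1 and Nfe2l1 were coding.

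Other regions were listed around both loci, and no genome-wide rate was set beside their number. Within 1000000 bases on either side, Myc had 5 other regions, the nearest 299420 bases away with 1 read in DKO and 36 in WT cells. Mycn had 1, at 308355 bases, with 9 reads in DKO and 163 in WT cells and no gene named.

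In the wider Myc, Max and Mxd network, 4 of 14 genes were listed: Myc and Mycn themselves, Mxd1 and Mxd4. Max, the shared partner, was not. Mxd1 and Mxd4, which pair with Max and oppose Myc at E-boxes, had 0 reads in DKO and 41 and 34 in WT cells, in regions that reach the 3'UTR. They were at least 11.3-fold and 9.35-fold lower in DKO cells. For genes, each taken by its region of highest mean count, the background of at least 10-fold lower counts was 55.6%. Here and in the lists below, counts named for a gene are those of this region alone unless stated. Myc, Mycn and Mxd1, 3 of the 4 network genes, were at least 10-fold lower. The median log2 of DKO over WT of the 4 was -5.36, against -4.85 over all genes. As Myc and Mycn are among the 4, the count and the median are no result apart from the members. Genes with 0 DKO reads enter both medians, which move with the pseudocount: -5.88 for the network and -5.59 for all genes at 0.25, and -4.02 and -3.45 at 2.

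Of 18 genes that act on Myc protein turnover, 8 were listed, with a median log2 of -4.27 (all genes -4.85). Of these 8, 5 were at least 10-fold lower, against 55.6% of all genes. Fbxw7, which recognises the degron phosphorylated by Gsk-3, had 29 reads in DKO and 203 in WT cells (5.77-fold, 3.90 to 8.84), in a region annotated as upstream of the gene. Usp28, a deubiquitinase that acts against Fbxw7, had 0 in DKO and 141 in WT cells in an intron, at least 38.8-fold lower. Axin1, a scaffold that holds Gsk-3, had 3 in DKO and 85 in WT cells, again upstream. Thus 4 of the 8, Gsk3b included, rested on regions outside any exon.

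Exonic regions were listed for the remaining turnover genes. Usp36, a nucleolar deubiquitinase, had 7 reads in DKO and 92 in WT cells (10.8-fold, 5.06 to 27.7), and the ubiquitin ligase Trim32 had 3 in DKO and 37 in WT cells (10.2-fold). The kinase gene Plk1 had 0 in DKO and 24 in WT cells, and the ligase subunit gene Fbxl14 0 in DKO and 17 in WT cells. For these last the bounds were 6.60 and 4.67, which the WT count alone sets.

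Transcripts known as targets of Myc were listed for 9 of 37 genes, with a median log2 of -3.22 (all genes -4.85). The gap moves with the pseudocount: at 2, the medians were -2.86 and -3.45. Of these 9, 3 were at least 10-fold lower, against 55.6% of all genes. The glucose transporter gene Slc2a1 had 59 reads in DKO and 428 in WT cells (5.98-fold, 4.55 to 7.99), and the ribosome assembly gene Rrs1 38 in DKO and 351 in WT cells (7.62-fold, 5.44 to 10.9). Over all its 4 regions Slc2a1 had 67 reads in DKO and 668 in WT cells, and over its 2 regions Rrs1 had 68 and 679. Cdkn2b, a cell cycle inhibitor that Myc represses, had 3 in DKO and 146 in WT cells (40.1-fold, 13.5 to 197). The phosphatase gene Cdc25a had 5 in DKO and 58 in WT cells (9.57-fold, 3.87 to 30.6).

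RNA-binding proteins known on Myc mRNA were listed for 3 of 16 genes, with a median log2 of -2.68 (all genes -4.85). Of these 3, 1 was at least 10-fold lower, against 55.6% of all genes. Igf2bp1, which protects the coding region of Myc mRNA, had 9 reads in DKO and 117 in WT cells (10.7-fold, 5.46 to 24.0). The m6A reader gene Ythdf1 had 19 in DKO and 151 in WT cells (6.55-fold, 4.05 to 11.2), and Khsrp, a decay factor, 5 in DKO and 31 in WT cells (5.11-fold, 1.97 to 16.8).

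Other proteins known as Gsk-3 substrates were listed for 13 of 31 genes, with a median log2 of -5.15 (all genes -4.85). Of these 13, 8 were at least 10-fold lower, against 55.6% of all genes. As 7 of the 13 had 0 DKO reads, this median moves with the pseudocount. In its deepest region, the insulin receptor adaptor gene Irs1 had 0 reads in DKO and 401 in WT cells, at least 110-fold lower. Its 5 listed regions together had 5 reads in DKO and 846 in WT cells. Jun, an immediate early transcription factor whose protein also carries a Gsk-3 degron, had 34 in DKO and 324 in WT cells (7.86-fold, 5.51 to 11.5). The Wnt co-receptor gene Lrp6 had 11 in DKO and 109 in WT cells (8.17-fold, 4.39 to 16.9). Axin1 and Cdc25a stand in this list too. By their deepest regions, Myc (32.0-fold) and Mycn (12.6-fold) lay between Irs1 and Jun.

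Of 32 other bHLH factors 7 were listed, with a median log2 of -3.33 (all genes -4.85). For 3 of them the deepest region lay upstream or in an intron. With exonic or UTR regions only, the median of this list was -4.06, and no all-gene median for such regions is given here. Of these 7, 4 were at least 10-fold lower, against 55.6% of all genes. Bhlhe40, a repressor induced by stress and hypoxia, had 37 reads in DKO and 267 in WT cells (5.95-fold, 4.21 to 8.64). The mesoderm factor Twist1 had 0 in DKO and 89 in WT cells in its deepest region, at least 24.5-fold lower. Its 2 listed regions together had 2 in DKO and 145 in WT cells. The E-box binding factors Usf1 and Usf2 had 7 and 9 in DKO and 91 and 63 in WT cells, in upstream regions. Counts of listed members at least 10-fold lower, over all 6 lists, are descriptions of these libraries and were not tested.

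**Figure D4:**
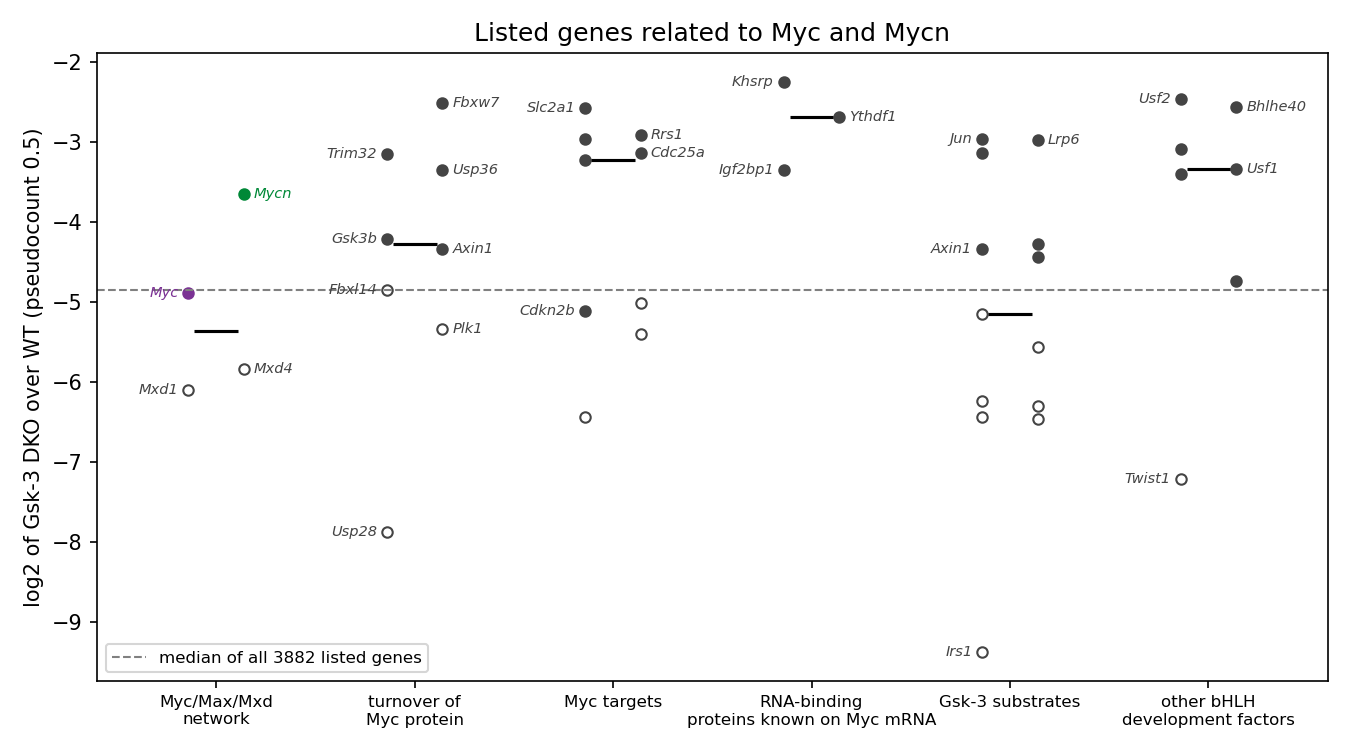
Log2 of Gsk-3 DKO over WT (pseudocount 0.5) for the listed genes of 6 lists, each gene by its region of highest mean count, with names for the genes described. Open circles are genes with 0 DKO reads, short bars the median of a list and the dashed line the median of all 3882 genes, -4.85; Myc lies at -4.89 and Mycn at -3.64.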

How the data were processed

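Per the file headers, the authors deposited 1 table of regions with a WT and a Gsk-3 DKO count. Bowtie2, DESeq and mm9 are named in the submitters' processing notes, without role; the peak caller is not given in the sources used here. The deposited ratio was the WT count over the DKO count times 0.825, blank at 0 DKO reads, and the deposited read density is a signal, WT count per base. Whether the deposited counts were normalized is not stated. The deposited coordinates match GRCm38, in which all 9 regions fall inside their RefSeq genes. The 7562 rows gave 6697 distinct regions.

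Folds used the same constant. Counts have exact Poisson, ratios exact Clopper-Pearson and ratios of ratios exact conditional 95% intervals (scipy 1.17.1, Python 3.11.15), tested on simulated data. Reads copied by PCR, with no molecular identifiers, need not be separate molecules, so these intervals and the 3-read floor reflect counting error alone. There is no p-value, as each group had 1 library. Log2 values used a pseudocount of 0.5.

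The members and gene lists were chosen with earlier results of these data known. Named were all members, all listed genes of the network and turnover lists, up to 4 of highest mean count from each other list, and the 3 nearest genes by count, passing over predicted genes. Alternatives were the pseudocount, the scaling, and subsets of regions.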

Additional observations from a re-analysis of the deposited data

How the results depend on the processing

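No paired analysis was possible because each genotype had 1 library, and no library could be left out. Of 95 alternatives, 70 left the value within its counting or order-statistic interval. For the network, turnover, RNA-binding and other bHLH lists, with 4, 8, 3 and 7 listed genes, that interval was the full range. Every member overlaps an exon or UTR, so keeping only such regions could not change the sums of Myc and Mycn. A median-ratio factor adds 3.77 to every log2 value by construction. It gave 0.19 for the second coding region of Myc, 0.13 for the Mycn region across the coding start and 0.40 for the Mycn 3'UTR, and -1.13 and -0.29 for the sums of Myc and Mycn. The list medians became -1.59 (network), -0.50 (turnover), 0.55 (targets), 1.09 (RNA-binding), -1.38 (substrates) and 0.44 (other bHLH factors). At a pseudocount of 2, the network (-5.36) was at -4.02, substrates (-5.15) at -3.79, turnover (-4.27) at -3.26 and targets (-3.22) at -2.86. The RNA-binding list (-2.68) was then at -2.59 and other bHLH factors (-3.33) at -2.92, against -3.45 for all genes (-4.85). At 0.25, the network was at -5.88 and substrates at -6.13, against -5.59 for all genes. The Mycn sum (-4.05) was -3.64 by its deepest region alone, which holds most of its DKO reads.

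The share of regions with a larger fold than the deepest Myc region (51.1%) was 40.4% among exonic regions, 43.2% in the part of the table with mean counts from the median up and 35.5% at like WT counts. For Mycn (73.2%) it was 63.0%, 65.2% and 57.1%. The cause was not tested. Like-count regions, and the subsets in the comparison of Mycn with Myc, were chosen after seeing the data. Low DKO counts limit every fold.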
